A study of Mus musculus with 2 samples.

Results

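To describe the fibroblast growth factor (FGF) pathway in cartilage cells, 10 genes were examined on the arrays of this study, namely 4 FGF ligands (*Fgf2*, *Fgf7*, *Fgf10* and *Fgf18*), 4 FGF receptors (*Fgfr1*, *Fgfr2*, *Fgfr3* and *Fgfrl1*) and 2 Sprouty inhibitors (*Spry1* and *Spry2*). Every probe set annotated to one of these genes alone was taken, which gave 18 of the 34945 probe sets that name a single gene and 10 of 18193 genes. The RNA came from superficial zone (SFZ) cells, taken from articular cartilage of the femur and tibia, and from costal chondrocytes (CC), taken from ribs by collagenase. Both kinds of cell were isolated from ICR mice at postnatal day 4, received no treatment according to the labels, and were grown in DMEM with 10% FBS. Each kind of cell had 1 Affymetrix mouse genome array, so no difference below has a replicate check and no test was run. No source used here says whether cells of several animals were pooled.

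Most FGFs are secreted proteins that bind receptor tyrosine kinases together with heparan sulfate on the cell surface. The receptors signal through the RAS, RAF, MEK and ERK kinases, and ERK activity induces transcription factors as well as inhibitors such as the Sprouty proteins, which feed back on the same cascade. In growth cartilage, FGFR3 in chondrocytes restrains proliferation, and FGF18 from the surrounding perichondrium is one of its ligands.

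Values are MAS5 signals on a linear scale. Each comes from a probe set, several short oligonucleotides that together read the 3′ end of a transcript. Levels of different probe sets are not on a common scale, so each probe set was compared between the arrays and not with other probe sets. The background level of an array came from 87 probe sets of chemosensory receptor genes, which these cells should lack, and lay at 28.2 for SFZ cells and at 26.0 for CC. To pass in SFZ cells, a probe set needed a signal over 100 there and an SFZ/CC ratio over 2. To pass in CC, it needed the same of its CC signal and CC/SFZ ratio. Each gene was counted by its brightest probe set, that of the highest mean of log2 signals. Among genes above background on both arrays, the log2 ratio of SFZ cells over CC had its median at -0.18. Scaling both arrays to equal medians moved it to 0.01 and quantile normalization to 0.05, and the ratios below are to be read relative to that shift.

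Of the 10 genes, 3 passed in CC (*Fgf7*, *Spry1* and *Spry2*) and 0 passed in SFZ cells. Among all 18193 genes, 5.41% passed in CC and 1.18% in SFZ cells. Among the 8986 genes with a signal over 100 on at least 1 array, of which 7 were among the 10, these shares were 11.0% and 2.38%. By probe sets, 4 of 18 passed in CC against 4.33% of all single-gene probe sets, and 0 of 18 passed in SFZ cells against 0.947%. On 17 of the 18 probe sets the SFZ signal was the lower, which includes 2 probe sets under background on both arrays and 2 above background on the CC array alone. Of the 12481 genes above background on at least 1 array, 66.6% had log2 ratios below 0 with signals raised to background. That share counts genes, and the same share over all single-gene probe sets was not counted. Since the array-wide median was itself -0.18, the count of 17 partly carries that shift. The 10 genes were chosen with earlier results of these arrays known, so the counts describe them and do not test them.

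All 13 chondrocyte markers were above background on both arrays. Their median log2 ratio was 0.28, with 2 of them passing in SFZ cells and none in CC. *Prg4*, the lubricin gene of the joint surface, was at 323 and 73.6, and *Gdf5* was at 93.1 and 74.2. Markers of several other cell types passed in CC, as *Fgf7*, *Spry1* and *Spry2* did. Of 13 skeletal muscle markers 10 were above background on at least 1 array, and all 10 passed in CC, with a median log2 ratio of -6.29. Only 5 of them were above background on both arrays, and the others were counted through their CC signal alone. *Myf6* and the muscle stem cell genes *Pax7* and *Myf5* were under background on both. Of 12 markers of fibroblasts and perichondrium 5 passed in CC, with a median of -0.98. Of 7 adipocyte markers 5 were analysed, and the 4 above background on at least 1 array passed in CC, with a median of -3.94. Only 2 of these were above background on both arrays, and *Cidec* was under background on both. Of 7 macrophage markers 4 passed in CC, with a median of -1.25 over the 6 above background, and *Fcgr1* was under background on both arrays. Of 5 endothelial markers none passed, and *Tek* was under background on both arrays. The median of the 4 above background was -0.27, and all of these had SFZ signals under background. The part of these cells in the FGF pathway values was not tested. In RNA of a whole culture, fewer cells of a type and less RNA per cell cannot be told apart, and with the samples taken from rib and from limb joint, body position and cartilage zone cannot be told apart either.

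*Fgf7*, which encodes keratinocyte growth factor, a ligand made by mesenchymal cells for the epithelial splice form of FGFR2, was measured by 2 probe sets. On the brighter one the signal was 78.4 in SFZ cells against 389 in CC, a CC/SFZ ratio of 4.96. On the other the signal was 74.4 in SFZ cells against 267 in CC, a ratio of 3.59. Both probe sets were above background on both arrays and both passed in CC. Their log2 ratios of SFZ cells over CC were -2.31 and -1.84.

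The other ligands were near or under background. *Fgf10*, a mesenchymal ligand of the same subfamily as FGF7 that is needed for limb and lung outgrowth, had a signal of 11.2 in SFZ cells, under background, and 45.2 in CC. It was at least 1.61-fold higher on the CC array, and its CC signal was under the minimum of 100. *Fgf2*, basic FGF, a ligand of several receptors that is stored in cartilage matrix, had a signal of 13.1 in SFZ cells, under background, and 28.0 in CC. The CC signal of *Fgf2* lay so close to background that no fold is given. *Fgf18* was under background on both arrays, with signals of 1.89 and 13.6, so the probe set of this perichondrial ligand gave no measurable level in either cell type. A low signal of a single probe set does not show that a transcript was absent.

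No receptor passed in either direction. *Fgfr3*, the receptor that restrains growth of cartilage, gave signals of 2982 for SFZ cells and 3168 for CC on its brighter probe set and of 332 and 379 on the other. The SFZ/CC ratios were 0.941 and 0.875. *Fgfr1*, a receptor found in many mesenchymal cells, was measured by 3 probe sets. The brightest gave signals of 692 for SFZ cells and 838 for CC, and the others had 276 and 332, and 90.5 and 94.4. The 3 ratios of *Fgfr1* were 0.826, 0.833 and 0.958.

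*Fgfr2*, which marks prechondrogenic and osteogenic mesenchyme, had the lowest SFZ/CC ratios of the receptors among probe sets above background. Its brightest probe set was at 488 in SFZ cells against 708 in CC, a ratio of 0.689, and the next was at 325 and 505, a ratio of 0.643. The third probe set of *Fgfr2* was under background on both arrays, at 1.33 and 5.21. *Fgfrl1* encodes a receptor-like membrane protein that binds FGFs but lacks the tyrosine kinase domain. Its brighter probe set was the only one of the 18 with the higher signal in SFZ cells, at 2322 against 2150, a ratio of 1.08. Its other probe set was at 750 in SFZ cells against 865 in CC, a ratio of 0.866, so the direction differed between the probe sets of this gene. None of the 10 receptor probe sets passed in either direction. The log2 ratios of the 4 receptors ran from -0.54 for *Fgfr2* to 0.11 for *Fgfrl1*, which was -0.05 with the median over its probe sets. That of *Fgfr3* also changed sign from -0.09 as deposited to 0.10 with equal medians and 0.05 under quantile normalization.

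Both Sprouty genes passed in CC. *Spry1* was measured by 1 probe set, with a signal of 55.5 in SFZ cells against 310 in CC, a CC/SFZ ratio of 5.58. Both signals were above background, and its log2 ratio of -2.48 was the lowest of the 7 genes above background on both arrays. *Spry2* was at 131 for SFZ cells and 285 for CC on its brighter probe set, a ratio of 2.17. On its other probe set the signals were 32.0 and 36.5, close to background, with a ratio of 1.14. The call of *Spry2* did not hold under several alternatives, since its log2 ratio of -1.12 became -0.93 with equal medians, -0.84 under quantile normalization and -0.65 with the median over its probe sets. Sprouty proteins are cytoplasmic inhibitors that act between receptor tyrosine kinases and ERK.

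**Figure D1:**
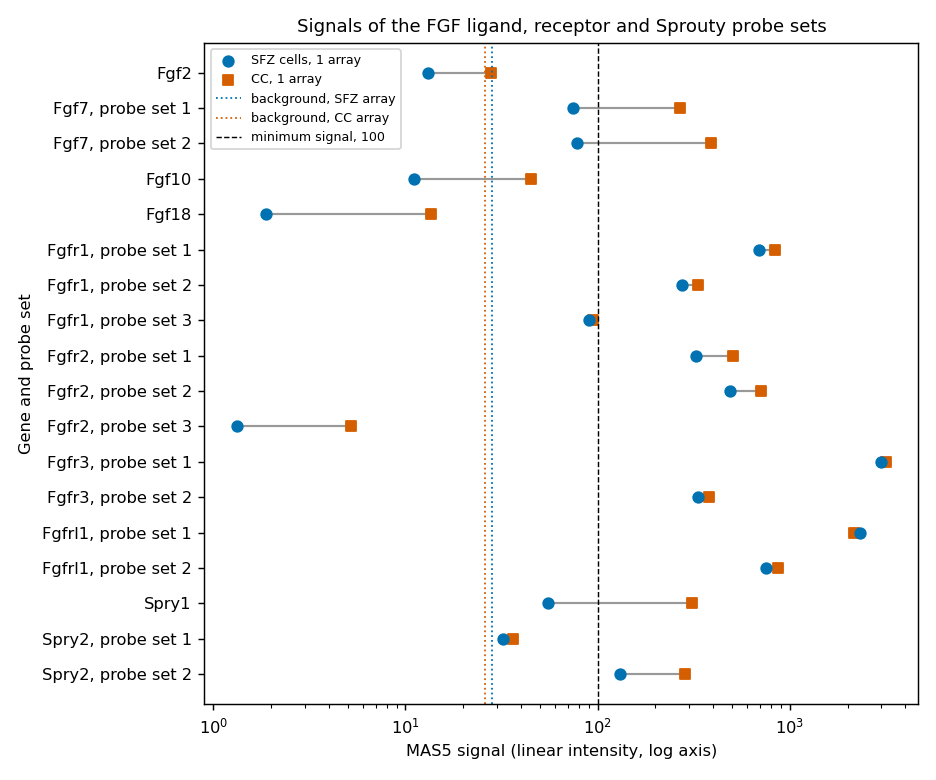
MAS5 signals of the 18 probe sets on a log axis, with 1 SFZ array (circles) and 1 CC array (squares); dotted lines mark the background levels and the dashed line the minimum signal of 100. The pairs of points of the receptors above background lie close together, whereas those of *Fgf7*, *Spry1* and the brighter probe set of *Spry2* are farther apart, with CC the higher, and *Fgf2* and *Fgf10* have SFZ signals under background. Pairs to the left of both dotted lines, *Fgf18* and the third probe set of *Fgfr2*, are under background on both arrays.

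The sequences upstream of the genes that passed in CC are shown with that of *Fgfrl1*, the receptor with the highest SFZ/CC ratio. *Fgfrl1* did not pass, and with ratios of 1.08 and 0.866 on its 2 probe sets its signals were near equal on both arrays. Whether the sequences bear on the ratios was not tested. Each is the 250 bases before the RefSeq gene start in build GRCm38.p6, written in the direction of the gene. RefSeq windows were at hand for 9 of the 10 genes, all but *Fgfr1*. Capitals mark matches, on either strand, to motifs that were searched for as letters, namely the CCAAT box, the CArG box of serum response factor and those that follow. The AP-1 motif was written as TGANTCA. For ETS factors the letters searched were CCGGAAG. The GC box, which SP1 binds, was searched as GGGCGG. The cyclic AMP element CRE was searched as TGACGTCA. The TATA box was searched as TATAAA. *Fgf7* lies at chr2:126034408-126034657 on the plus strand, *Spry1* at chr3:37639697-37639946 on the plus strand, *Spry2* at chr14:105896820-105897069 on the minus strand and *Fgfrl1* at chr5:108693979-108694228 on the plus strand.
Fgf7: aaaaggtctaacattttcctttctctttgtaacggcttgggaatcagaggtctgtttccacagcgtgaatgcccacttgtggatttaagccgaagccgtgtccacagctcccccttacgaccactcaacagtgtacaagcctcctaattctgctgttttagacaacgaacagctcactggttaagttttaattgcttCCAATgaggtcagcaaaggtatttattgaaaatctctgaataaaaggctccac
Spry1: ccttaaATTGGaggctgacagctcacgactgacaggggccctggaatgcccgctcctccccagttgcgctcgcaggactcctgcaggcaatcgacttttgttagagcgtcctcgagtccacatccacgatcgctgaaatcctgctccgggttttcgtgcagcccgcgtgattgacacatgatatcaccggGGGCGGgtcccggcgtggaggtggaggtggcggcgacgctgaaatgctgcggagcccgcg
Spry2: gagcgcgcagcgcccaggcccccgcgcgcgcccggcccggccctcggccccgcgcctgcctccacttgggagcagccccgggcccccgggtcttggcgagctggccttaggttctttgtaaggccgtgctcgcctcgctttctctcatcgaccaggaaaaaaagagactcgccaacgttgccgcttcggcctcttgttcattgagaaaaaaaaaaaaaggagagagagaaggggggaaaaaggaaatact
Fgfrl1: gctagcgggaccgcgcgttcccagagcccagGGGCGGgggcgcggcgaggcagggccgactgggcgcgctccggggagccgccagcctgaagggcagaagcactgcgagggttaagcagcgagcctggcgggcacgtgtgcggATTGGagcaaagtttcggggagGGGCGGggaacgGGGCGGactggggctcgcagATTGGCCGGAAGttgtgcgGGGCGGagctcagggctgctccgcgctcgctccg
The *Fgf7* window held 1 match, a CCAAT box that starts 53 bases before the gene start, and 43.6% of its bases were G or C. The *Spry1* window held a CCAAT box 244 bases and a GC box 60 bases before the start, and the *Spry2* window held no match, both at 62.4% G or C. The *Fgfrl1* window, at 73.6% G or C, held 4 GC boxes, 2 CCAAT boxes and an ETS match, which adjoins the CCAAT box nearer to the start. Over all 32851 RefSeq windows the median was 52.4% G or C, and the CCAAT box was in 33.8%, the GC box in 32.7%, TATA in 12.4%, ETS in 6.91%, AP-1 in 6.75%, CRE in 1.55% and the CArG box in 1.47%. None of the windows of the 9 genes held an AP-1, CRE, TATA or CArG match. A match or its lack describes letters in this window only and says nothing of which factor acts there.

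Set among all genes, *Fgf7* and *Spry1* lay in the lower tail of the ratios. Of 12481 genes above background on at least 1 array, with signals raised to the background level, the log2 SFZ/CC ratio was -1.51 at the 5th percentile, -0.18 at the median and 0.67 at the 95th percentile. *Spry2*, at -1.12, lay inside that range, as did all 4 receptors. The median log2 ratio of the 9 genes above background was -0.54, or -1.10 with signals left as deposited. Of the 9 log2 ratios, 7 were below 0 and that of *Fgfrl1* was above it, while *Fgf2*, with an SFZ signal under background and a CC signal close to it, gives no direction. Over the 12481 genes, 66.6% of log2 ratios were below 0. The median of the 9 genes was -0.35 with equal medians and -0.32 under quantile normalization. By role, the median was -0.68 for the 3 ligands above background, of which *Fgf2* and *Fgf10* have SFZ signals raised to background, -0.18 for the 4 receptors and -1.80 for the 2 Sprouty genes. The receptor median was 0.01 with equal medians and -0.01 under quantile normalization.

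**Figure D2:**
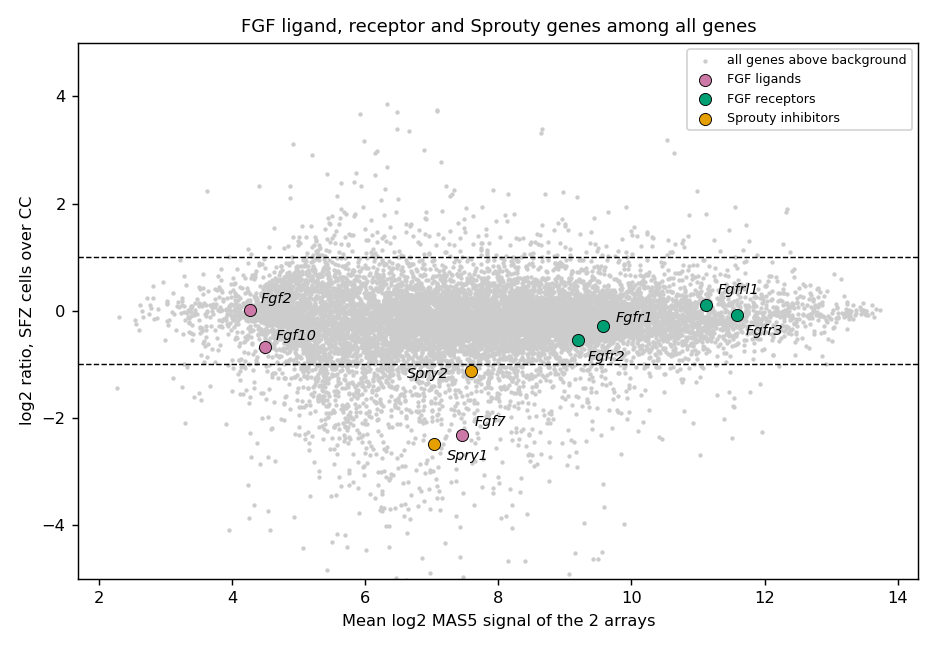
Mean log2 MAS5 signal of the 2 arrays (x axis, signals as deposited) against the log2 ratio of SFZ cells over CC (y axis, signals raised to background) for all genes above background on at least 1 array, with the ligands, receptors and Sprouty genes coloured. Dashed lines show where one signal is 2 times the other, and 26 genes lie outside the plotted range. *Fgf7* and *Spry1* sit well under the lower dashed line, *Spry2* just under it and the receptors near 0, while the positions of *Fgf2* and *Fgf10* rest on SFZ signals at background.

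**Figure D3:**
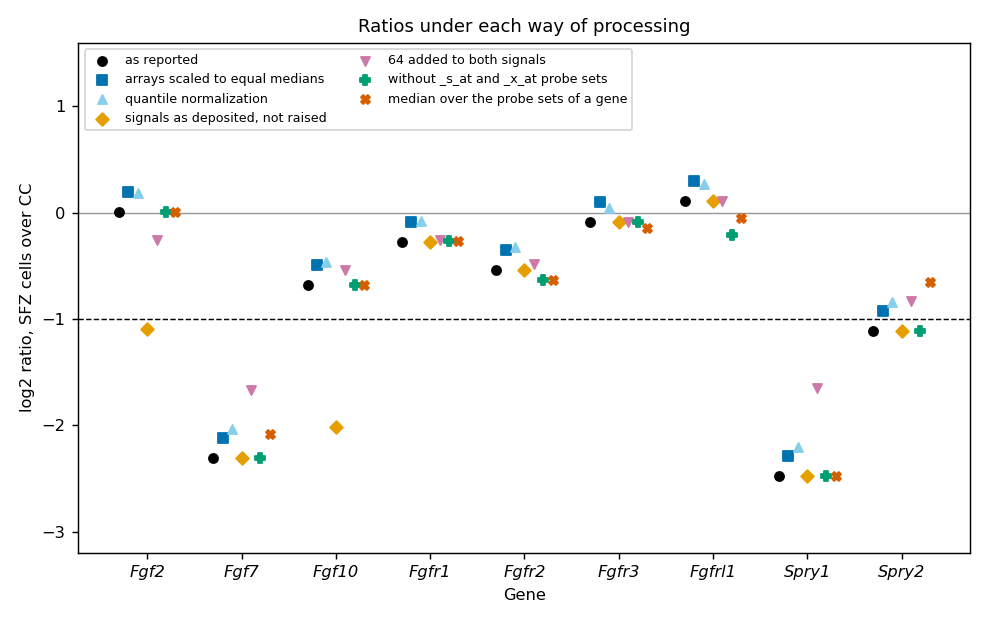
Log2 ratio of SFZ cells over CC of the 9 genes above background, as reported and under each alternative way of processing, 1 array per cell type. The dashed line marks a CC/SFZ ratio of 2 and the grey line equal signals. *Fgf7* and *Spry1* stay under the dashed line in all of them, *Spry2* lies on both sides of it, and the values of *Fgf2* and *Fgf10* as deposited rest on SFZ signals under background.

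Other genes of the pathway were taken from lists of 84 genes, of which 75 had a probe set of their own and 61 were above background on at least 1 array. Of these 61, 11 passed in CC and 2 in SFZ cells. Of the 12481 genes of the array above background on at least 1 array, 985 passed in CC, which is 7.89%, and 214 in SFZ cells, which is 1.71%. The median log2 ratio was -0.36 for the 61 genes and -0.18 for all genes above background. The lists below were not tested against other genes, and their counts are to be read beside these shares.

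Among the 18 other genes of the FGF family, listed as other FGF ligands, 8 were above background and only *Fgf21* passed, in SFZ cells. Not all of the 18 encode secreted ligands of the receptors, as the list includes *Fgf11*, *Fgf12*, *Fgf13* and *Fgf14*. *Fgf21*, an endocrine FGF that stress and fasting induce, had a signal of 1519 in SFZ cells against 423 in CC, an SFZ/CC ratio of 3.59. It ran opposite to *Fgf7* and passed under all 9 alternatives tried for these lists. The median of the 8 genes was -0.01, and 10 genes of the list, among them *Fgf1* and *Fgf8*, were under background on both arrays. *Fgf9*, a ligand of FGFR3 in skeletal tissue, was at 30.7 for SFZ cells and 31.1 for CC, close to background.

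Of the other receptors and co-receptors, 5 of 6 were above background and 1 passed. *Flrt2*, a leucine-rich repeat membrane protein of a family that binds FGF receptors, was at 83.6 in SFZ cells against 446 in CC, a CC/SFZ ratio of 5.33. All 3 of its probe sets passed in CC, with ratios from 5.33 to 8.40. Its relatives *Flrt1* and *Flrt3* did not pass, at 62.0 and 38.3, and at 56.0 and 42.8. *Fgfr4* was at 42.4 for SFZ cells and 70.0 for CC, under the minimum, and *Kl*, encoding the FGF23 co-receptor Klotho, was under background on both arrays. *Klb* was at 3.41 in SFZ cells, under background, and 41.5 in CC, under the minimum.

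Of the other feedback inhibitors, all 9 were above background on at least 1 array, 3 passed in CC and none in SFZ cells. With signals raised to background, their log2 ratios were below 0 for 8 of 9, where 66.6% of all genes above background lay below 0. Only 5 of the 9 were above background on both arrays. *Spred3*, counted among the 8, was at 13.8 in SFZ cells, under background, and 29.7 in CC, close to it, and gives no clear direction. *Spry4*, a further Sprouty gene, was at 21.1 in SFZ cells, under background, and 127 in CC, at least 4.49-fold higher. That call rests on 1 of its 4 probe sets, as the others were under background on both arrays. *Dusp5*, a nuclear phosphatase of ERK, was at 13.3 in SFZ cells, under background, and 131 in CC, at least 4.64-fold higher. *Spred2*, a Sprouty-related inhibitor of RAF activation, was at 178 and 375, a CC/SFZ ratio of 2.10. *Dusp6*, the cytoplasmic ERK phosphatase that FGF signaling induces, was at 211 and 355, a ratio of 1.68, and did not pass. *Spry3* was the exception in direction, at 59.9 for SFZ cells and 44.5 for CC. The median of the list was -0.75, and it was -0.56 with equal medians and -0.50 under quantile normalization, with 2 genes passing in CC under each. When each gene was taken by the median of its probe sets, it was -0.28 and 1 gene passed in CC.

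Of the genes that respond to ERK activity, 8 were above background, 3 of them passed in CC and none in SFZ cells. Of the 8 log2 ratios 7 were below 0, where 66.6% of all genes above background lay below 0. That of *Myc*, counted among the 7, was -0.02, with near equal signals. With equal medians 2 passed in CC, and under quantile normalization 1 did. *Egr1*, encoding a zinc finger protein of the immediate early response, stood at 604 in SFZ cells against 3092 in CC, a ratio of 5.12. *Fos* was at 188 and 447, a ratio of 2.37, and *Fosl1* at 55.2 and 112, a ratio of 2.03, both encoding subunits of AP-1. *Etv5*, an ETS factor that FGF signaling induces in limb mesenchyme, did not pass, at 199 and 306. *Myc* was at 863 and 878 and *Ier3* at 1145 and 1010, and neither passed. The median of the list was -0.72, or -0.53 with equal medians and -0.50 under quantile normalization.

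Of the proteoglycans, heparan sulfate enzymes and FGF carriers, 18 were above background, 4 passed in CC and 1 in SFZ cells. *Sdc1*, a syndecan, was at 213 in SFZ cells against 772 in CC, a ratio of 3.62, with 3 of its 4 probe sets passing. *Gpc3*, a glypican, was at 426 and 1532, a ratio of 3.59. *Sdc2* was at 1480 and 3008, a ratio of 2.03. The 2 extracellular sulfatases that remove 6-O-sulfate from heparan sulfate ran in opposite directions. *Sulf1* was at 583 in SFZ cells against 239 in CC, an SFZ/CC ratio of 2.43, and its second probe set, at 461 and 140, had a ratio of 3.28. *Sulf2* was at 658 in SFZ cells against 1376 in CC, a CC/SFZ ratio of 2.09, and its dimmest probe set went the other way at 60.1 and 41.6. *Hspg2*, which encodes perlecan, the main heparan sulfate proteoglycan of cartilage matrix, was at 950 and 917. The median of the list was -0.23, and it was -0.05 with equal medians.

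None of the 13 signal transducers above background passed in either direction. Their median of -0.20 was close to that of all genes. *Ptpn11*, encoding the phosphatase SHP2 that relays receptor signals to RAS, was at 804 for SFZ cells and 1125 for CC, and *Map2k1*, encoding MEK1, was at 735 and 1027.

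The calls with ratios near 2 were those that the scaling of the arrays decided. With equal medians, *Fosl1*, *Sdc2*, *Spred2* and *Sulf2* no longer passed, and under quantile normalization *Fos* did not either. Over all genes, 985 passed in CC and 214 in SFZ cells as deposited, 754 and 333 with equal medians, and 685 and 376 under quantile normalization.

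**Figure D4:**
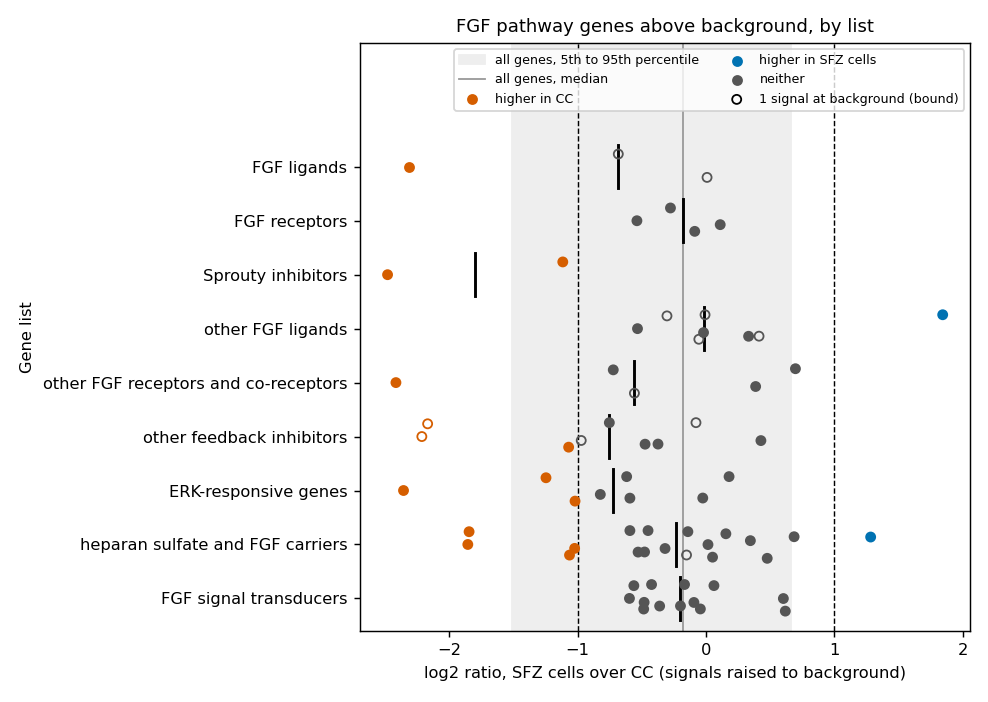
Log2 ratios of SFZ cells over CC of the FGF pathway genes above background, by list, with signals raised to the background level and 1 array per cell type. Each point is a gene, open points are bounds, black bars are the medians of the lists, dashed lines mark a ratio of 2, and the grey band spans the 5th to 95th percentile of all genes above background. The 4 FGF receptors and the signal transducers lie within the dashed lines, *Fgf21* is the point farthest to the right at 1.84, and the points past the left dashed line are the genes that passed in CC.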

How the data were processed

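Labelled cRNA made from 100 ng of total RNA was hybridised to Affymetrix mouse genome arrays, 1 for SFZ cells and 1 for CC. The deposited values are intensities, MAS5 signals on a linear scale, and were not scaled again. No source used here gives the MAS5 version, its scaling target or detection calls. Of 45101 probe sets, 64 controls were dropped, and 932 that name several genes and 9211 without a name stood for no gene.

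The background level was set at the 95th percentile of signals from 87 probe sets of chemosensory receptors. Whether a probe set passed was decided on the signals as deposited. For medians and percentiles of log2 ratios, unless stated otherwise, a signal under the background level was raised to it, which makes the ratio a bound. Medians leave out genes under it on both arrays. The SFZ thresholds follow the study and those for CC mirror them. Text names every probe set of the 10 genes, the pathway genes that passed or, in lists without one, 2 taken by their mean log2 signal. Other genes were named after their values were seen. The 10 genes and all lists were chosen with earlier results of these data known. For 9 listed pathway genes and 2 adipocyte genes, values were not analysed here.

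Alternatives were equal medians, quantile normalization, signals raised or not, 64 added to both, ratios over 1.5 or 3, signals over 50 or 200, no probe sets ending in _s_at or _x_at, and other rules for genes with several probe sets. Counting was tested on simulated data. Python 3.11.15, numpy 2.4.6, pandas 2.3.3 and matplotlib 3.10.9 were used.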

Additional observations from a re-analysis of the deposited data

How the results depend on the processing

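The 3 genes that passed in CC were 2 with equal medians, under quantile normalization, with 64 added to both signals, with ratios required to exceed 3, when all probe sets of a gene had to pass, and with the median over probe sets. *Spry2* was the gene lost in each, and *Fgf7* and *Spry1* passed under every alternative tried. None of the 10 genes passed in SFZ cells under any of them. The 13 pathway genes past the thresholds became 8 under quantile normalization, 22 at a ratio over 1.5 and 7 at a ratio over 3. Other thresholds change counts by construction. Scaling to equal medians multiplies each array by a constant, so all log2 ratios move by the same amount, as that of *Spry2* from -1.12 to -0.93. What the offset between the arrays stems from was not tested. Of 54 ratios of single genes under the alternatives, 0 of those that passed changed sign, and 8 moved by over 1.5 times or changed their call, among them *Fgf7* at -1.67 and *Spry1* at -1.65 on the log2 scale with 64 added. No paired analysis was possible because there was 1 array per cell type. The number of arrays limits the precision, and signals under background, as of *Fgf18*, give no ratio.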

Other observations

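*Braf*, which encodes the RAF kinase between RAS and MEK, was measured by 9 probe sets. All 9 were above background on at least 1 array and had the higher signal in SFZ cells. Their SFZ/CC ratios as deposited ran from 1.33 to 2.63, and the brightest read 381 for SFZ cells against 251 for CC. The probe sets with ratios of 2.39 and 1.75 had CC signals under background, at 14.4 and 16.1, and SFZ signals of 34.4 and 28.2. None of them passed, because those with ratios over 2 had SFZ signals under 100. *Gab1*, an adaptor of receptor tyrosine kinases, had ratios from 1.44 to 1.67 on its 3 probe sets. *Hs6st2*, a heparan sulfate 6-O-sulfotransferase, had ratios of 1.61 and 1.88 on its 2 probe sets above background. *Gpc6*, a glypican, passed in SFZ cells on 1 of its 5 probe sets, at 118 and 57.2, and on the brightest it was at 974 and 875. The genes of this paragraph were picked after their values were seen, and no test was run on them.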
